A study of Homo sapiens with 9 samples.

Results

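The 9 genes *MDM2*, *CDKN1A*, *BAX*, *BBC3*, *FAS*, *ZMAT3*, *RRM2B*, *TP53INP1* and *FDXR* are direct transcriptional targets of the tumour suppressor p53. They were followed by symbol in RNA-seq of LNCaP clones with and without a deletion in *EPCART*, and all 9 were found among the 19984 protein-coding genes of the normalized count table. *EPCART* is a long noncoding RNA of prostate cancer cells, and LNCaP is a human prostate cancer line with an active androgen receptor and functional p53. The clones del-4 and del-56 carry a CRISPR-Cas9 deletion that takes away the *EPCART* promoter and first exons, and the WT clone keeps the locus. Each group is a single clone grown as 3 cultures, which the study calls biological replicates, for 48 h in RPMI medium with serum. The p-values therefore measure the spread between cultures of a clone, and the deletion and other differences between clones cannot be told apart. A single WT clone was the reference of both *EPCART*-del clones. The mRNA of p53 itself and *EPCART* are not analysed here.

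p53 is a transcription factor that is kept scarce in unstressed cells and accumulates after DNA damage and other stresses. It binds a response element made of a pair of decamers near its target genes and raises their transcription. Targets fall into groups that restrain p53, halt the cell cycle, start apoptosis, or repair DNA and adjust metabolism. *MDM2* encodes the ubiquitin ligase that marks p53 for degradation, so that p53 and MDM2 form a negative feedback loop. *CDKN1A* encodes p21, an inhibitor of cyclin-dependent kinases that stops the cell cycle. *BAX* encodes a protein that permeabilizes the outer mitochondrial membrane, *BBC3* encodes PUMA, a BH3-only protein that counters the survival proteins of the BCL2 family, and *FAS* encodes a death receptor of the cell surface. *TP53INP1* encodes a nuclear stress protein linked to apoptosis and autophagy, and *ZMAT3* an RNA-binding zinc finger protein. *RRM2B* encodes the p53-inducible small subunit of ribonucleotide reductase, which supplies deoxynucleotides for repair, and *FDXR* encodes ferredoxin reductase, a mitochondrial enzyme of electron transfer to ferredoxins.

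To show the letters through which p53 can meet these genes, the hg38 sequence was searched up to 3000 bases on each side of the start of the canonical transcript. The search was for the p53 response element, 20 bases of 2 adjacent decamers, each with 3 purines, C, 2 bases of A or T, G and 3 pyrimidines. The 4 C and G positions were required, and up to 3 of the other 16 positions could differ. The element is its own reverse complement, so that a search of 1 strand covers both. A match with at most 2 mismatches was present for 6 of the 9 genes, against 4.64% of 19905 genes, and one with at most 3 mismatches for 8 of the 9, against 25.4%. Of 54 further p53 targets taken from general knowledge, 33.3% held a match with at most 2 mismatches. The best match is printed 5′ to 3′ on the strand of its gene, with the required C and G in capitals, so that the elements can be compared beside the differences below. *RRM2B* had a match with 1 mismatch in intron 1, which is not printed, and no match was found in the window of *TP53INP1*. A match describes the letters only, and whether p53 was bound there was not measured.
ZMAT3: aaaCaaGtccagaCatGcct
CDKN1A: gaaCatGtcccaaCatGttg
MDM2: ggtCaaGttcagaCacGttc
FAS: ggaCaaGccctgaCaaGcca
BAX: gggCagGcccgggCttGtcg
BBC3: ctgCaaGtcctgaCttGtcc
FDXR: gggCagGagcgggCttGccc

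The *ZMAT3* element had 0 mismatches and lay in intron 1 of the canonical transcript, at chr3:179070188-179070207 on the minus strand, with its centre 1611 bases downstream of the start. Such a full match was found for 0.0804% of all genes. The *MDM2* element had 2 mismatches and lay in intron 1, at chr12:68808923-68808942 on the plus strand and 755 bases downstream. The *FAS* element had 2 mismatches, at chr10:88991309-88991328 on the plus strand, and the *BAX* element had 2 mismatches, at chr19:48955213-48955232 on the plus strand. Both lay in intron 1 of the canonical transcript, 520 and 347 bases downstream of the start, and overlapped an exon of another transcript. The *CDKN1A* element had 2 mismatches and lay at -2256 bases from the start, at chr6:36676449-36676468 on the plus strand, where it overlapped an exon of another transcript. The *BBC3* element had 3 mismatches and lay at -131 bases from the start, at chr19:47231320-47231339 on the minus strand. The *FDXR* element had 3 mismatches and lay at -12 bases from the start, at chr17:74872996-74873015 on the minus strand, and overlapped an exon of another transcript.

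Read counts summed over all genes ranged from 91074556 to 118877134 per library, with del-56 replicate 3 the lowest. Reads counted with more than 1 gene enter this sum more than once. A normalized count is the read count of a gene divided by a size factor of its library. The 10 luminal prostate markers were expressed in all 9 libraries and summed to between 377293 and 406174 normalized counts. Of the markers of other cells, *KRT5* was at no more than 0.965, *CD3E* was at 0 in every library, and *COL1A2* was at no more than 3.87, while *COL1A1* ranged from 937 to 1359, *VWF* from 288 to 719, *SYP* from 102 to 236 and *KRT14* from 19.4 to 64.3. The other markers of basal, leukocyte, fibroblast, endothelial and neuroendocrine cells were at no more than 14.9 in any library. The 3 fibroblast markers summed to 941–1020 in the WT libraries, 1106–1361 in those of del-4 and 1193–1328 in those of del-56, almost all of it *COL1A1*. The 2 endothelial markers summed to 589–615 in the WT libraries, 288–326 in those of del-4 and 509–719 in those of del-56, almost all of it *VWF*. The part of these markers in the results was not tested. Comparing the spans of overlapping genes pointed to a count over the whole gene span without regard to strand: of 312 genes lying inside a gene of the opposite strand, 308 had no more reads than the outer gene in every library. Reads of genes that overlap a p53 target can thus be counted with it, and overlaps with other genes of the table are given beside each gene. Noncoding RNA genes or a pseudogene outside the table also overlap *MDM2*, *CDKN1A*, *FAS* and *BBC3*, and their reads were not counted apart. A long noncoding RNA gene shares 1899 exon bases with *FAS*.

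Transcripts of 8 of the 9 p53 target genes were more abundant in del-4 than in WT, and *FAS* was the exception. In del-56, 6 of the 9 were more abundant than in WT (*MDM2*, *CDKN1A*, *BAX*, *ZMAT3*, *RRM2B* and *TP53INP1*), *FAS* was less abundant, and *BBC3* and *FDXR* did not pass the test. These counts came from limma on log2(normalized count + 1) values, with a call at a Benjamini-Hochberg adjusted p under 0.05 over all genes tested. Of all genes, 20.5% were called higher and 20.2% lower in del-4, and 19.2% were called higher and 20.5% lower in del-56. When libraries were rescaled to the same total, the calls over all genes in del-4 moved from 3565 higher and 3517 lower to 2364 higher and 4932 lower, while 7 of the 9 p53 target genes were still called higher. The median log2 fold change of the 9 genes in del-4 was 0.51, against -0.0028 over all genes tested, and that in del-56 was 0.26, against -0.0011. By the rule of an unadjusted p under 0.05 with a log2 fold change past 1, which 5.82% of genes met in del-4, 5.94% in del-56 and 4.28% between the *EPCART*-del clones, *CDKN1A* in del-4 was the only one of the 9 to be called. The del-4 libraries did not overlap those of WT for 8 of the 9 genes, and 49.5% of all genes did not overlap. The del-56 libraries did not overlap those of WT for 7 of the 9, with *FAS* the one below, and 48.7% of all genes did not overlap.

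**Figure D1:**
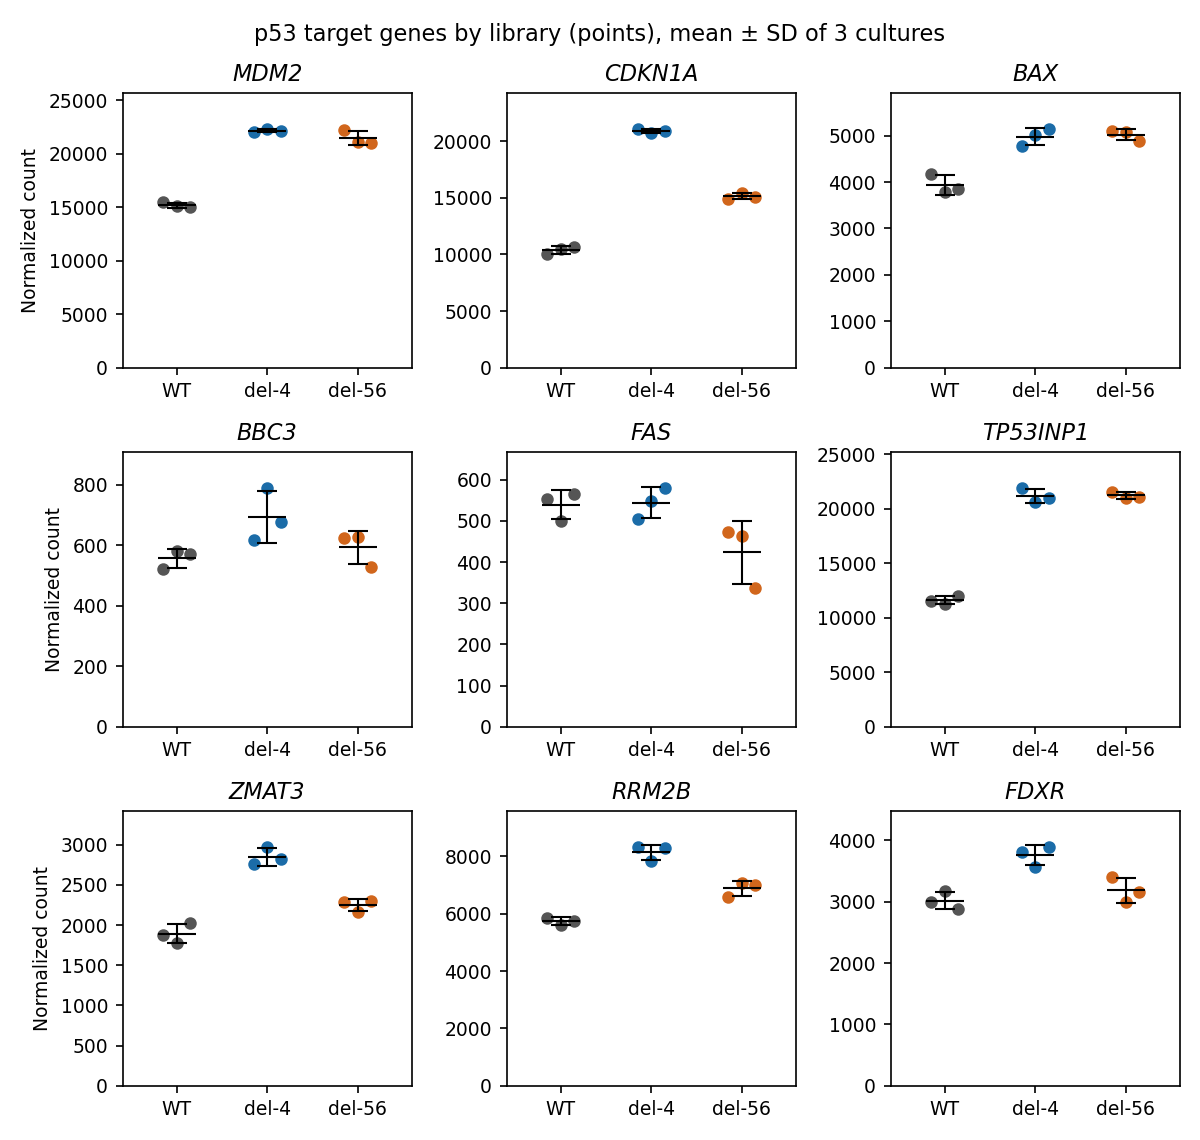
Normalized count (vertical axis, from 0) of each p53 target gene in the 3 cultures of WT, del-4 and del-56, with each point a library and the bars the mean ± SD. *TP53INP1* and *MDM2* stood at similar levels in both *EPCART*-del clones, *CDKN1A*, *ZMAT3* and *RRM2B* stood highest in del-4 and between WT and del-4 in del-56, and *FAS* was lowest in del-56.

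Among the genes that restrain p53, *MDM2* (ENSG00000135679.26, chr12:68808177-68845544, plus strand) had 22002, 22289 and 22154 normalized counts in del-4, 22185, 21141 and 20989 in del-56, and 15459, 15088 and 15016 in WT. All 6 *EPCART*-del libraries stood above all 3 WT libraries. The log2 fold change was 0.54 (SE 0.033) in del-4 and 0.50 (SE 0.037) in del-56, with limma adjusted p = 4.1e-10 and 3.1e-08. Del-4 and del-56 differed by 0.047 on the log2 scale, with a 95% interval of -0.028 to 0.12 and an adjusted p of 0.40 in limma, so that a difference between them was not shown. The last 3348 bases of *MDM2* are shared with *CPM*, a carboxypeptidase gene on the opposite strand. The count of *CPM* in the table was also higher, by 0.57 in del-4 and 0.52 in del-56. Reads in the shared bases can be counted with both genes, and how many of the *CPM* reads came from *MDM2* was not tested. With all reads of *CPM* taken off, *MDM2* was at 9541 ± 244 in WT, compared with 13754 ± 305 in del-4 and 13351 ± 553 in del-56 (mean ± SD, n = 3), and the log2 fold changes were 0.53 and 0.48.

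The cell cycle inhibitor gene *CDKN1A* (ENSG00000124762.14, chr6:36676460-36687337, plus strand) had the largest difference of the 9 genes in del-4. Its normalized counts were 21047, 20674 and 20857 in del-4, 14880, 15410 and 15068 in del-56, and 10006, 10499 and 10618 in WT. The 3 clones did not overlap, with del-56 between WT and del-4. Against WT, the log2 fold change was 1.01 (SE 0.035, 2.01-fold) in del-4 and 0.54 (SE 0.038, 1.46-fold) in del-56, with limma adjusted p = 2.9e-13 and 1.5e-08. Del-4 exceeded del-56 by 0.46 (95% interval 0.39 to 0.54, limma adjusted p = 1.9e-08). An antisense noncoding RNA, DINOL, shares 951 bases of the *CDKN1A* span, and its reads were not counted apart here.

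*BAX* (ENSG00000087088.20, chr19:48954815-48961798, plus strand) had 4779, 5022 and 5139 normalized counts in del-4, 5093, 5088 and 4892 in del-56, and 4181, 3789 and 3842 in WT. Both *EPCART*-del clones lay above WT without overlap and overlapped each other. The log2 fold change was 0.34 (SE 0.048) in del-4 and 0.35 (SE 0.048) in del-56, with limma adjusted p = 1.5e-05 and 2.3e-05. Of the 20 nearest expressed neighbours of *BAX*, 17 had a positive log2 fold change in del-4, with a median of 0.40, against a median of 0.015 in del-56. Of these 20, 4 passed the test as higher in del-4, a share near the 20.5% of all genes. The part of this neighbourhood in the *BAX* difference of del-4 was not tested.

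The other apoptosis genes were expressed at far lower counts and moved less evenly. *BBC3* (ENSG00000105327.18, chr19:47220822-47232766, minus strand) had 617, 788 and 675 normalized counts in del-4, 622, 626 and 529 in del-56, and 519.9, 579 and 569 in WT. All 3 del-4 libraries lay above WT, replicate 2 the highest, while del-56 overlapped WT. The log2 fold change was 0.31 (SE 0.11, limma adjusted p = 0.025) in del-4. In del-56 it was 0.088 (95% interval -0.14 to 0.31, limma adjusted p = 0.56). Without del-4 replicate 2, the value in del-4 was 0.22 with a limma adjusted p of 0.14. The call in del-4 was likewise lost on rescaling to the same total (0.24, adjusted p = 0.091 in limma) and without del-4 replicate 3, WT replicate 1 or WT replicate 3 (adjusted p = 0.058, 0.091 and 0.060 in limma).

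*FAS* (ENSG00000026103.22, chr10:88953813-89029605, plus strand) had 505, 549.8 and 579.6 normalized counts in del-4, 474, 463 and 336 in del-56, and 553, 500.9 and 567 in WT. Del-4 overlapped WT, and all 3 del-56 libraries lay below WT, the lowest being replicate 3, the library with the lowest summed read count. In del-4 the log2 fold change was 0.012 (95% interval -0.21 to 0.23, limma adjusted p = 0.94). In del-56 *FAS* fell by 0.36 on the log2 scale (SE 0.13, limma adjusted p = 0.042). Without del-56 replicate 3 the value was -0.20 with a limma adjusted p of 0.21, and without WT replicate 1, 2 or 3 the limma adjusted p was 0.11, 0.058 or 0.14. The call was also lost with no filter on low values (limma adjusted p = 0.057) and under quantile normalization (-0.30, limma adjusted p = 0.079). The span of *FAS* shares 37527 bases with *ACTA2*, an actin gene on the opposite strand, and 21341 bases with *STAMBPL1*. The count of *ACTA2* in the table was higher in del-56 by 0.54. The part of reads from these genes in the counts of *FAS* was not tested.

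*TP53INP1* (ENSG00000164938.14, chromosome 8, minus strand) had 21885, 20579 and 21018 normalized counts in del-4, 21558, 21005 and 21114 in del-56, and 11551, 11267 and 12008 in WT. The *EPCART*-del clones overlapped each other and lay far above WT. Against WT, the log2 fold change was 0.87 in both clones (SE 0.037 in each, 1.82-fold in del-4 and 1.83-fold in del-56), with limma adjusted p = 3.9e-12 and 4.3e-11. The difference of del-4 from del-56 was -0.0048, with a 95% interval of -0.081 to 0.071. *TP53INP1* lies wholly inside *NDUFAF6*, a gene for assembly of respiratory complex I on the opposite strand, whose count in the table also rose, by 0.72 in del-4 and 0.74 in del-56. After the reads of *TP53INP1* were taken off, *NDUFAF6* was at 2802 ± 84.1 in WT, compared with 2655 ± 129 in del-4 and 2836 ± 87.0 in del-56 (mean ± SD, n = 3). Its log2 fold changes were then -0.079 and 0.018, with adjusted p = 0.25 and 0.82 in limma.

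*ZMAT3* (ENSG00000172667.11, chr3:178960121-179072215, minus strand), whose intron 1 holds the full match printed above, had 2754, 2968 and 2821 normalized counts in del-4, 2288, 2162 and 2305 in del-56, and 1872, 1782 and 2019 in WT. The 3 clones did not overlap and stood in the same order as for *CDKN1A*. The log2 fold change against WT was 0.59 (SE 0.058, limma adjusted p = 2.1e-07) in del-4. It was 0.25 (SE 0.061, limma adjusted p = 0.0035) in del-56.

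*RRM2B* (ENSG00000048392.12, chromosome 8, minus strand), of nucleotide supply, had 8321, 7850.3 and 8279 normalized counts in del-4, 6599.7, 7066 and 7005 in del-56, and 5866, 5604 and 5747 in WT. Here too the clones did not overlap, with del-56 between WT and del-4. The log2 fold change was 0.51 (SE 0.039) in del-4 and 0.26 (SE 0.042) in del-56, with limma adjusted p = 1.2e-08 and 1.1e-04.

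*FDXR* (ENSG00000161513.12, chr17:74862497-74873031, minus strand) had 3818, 3574 and 3888 normalized counts in del-4, 3396, 2994 and 3165 in del-56, and 3002, 3172 and 2885 in WT. Del-4 lay above both other clones, and del-56 overlapped WT. The log2 fold change was 0.32 (SE 0.051, limma adjusted p = 6.3e-05) in del-4. In del-56 it was 0.076 (95% interval -0.044 to 0.20, limma adjusted p = 0.32).

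**Figure D2:**
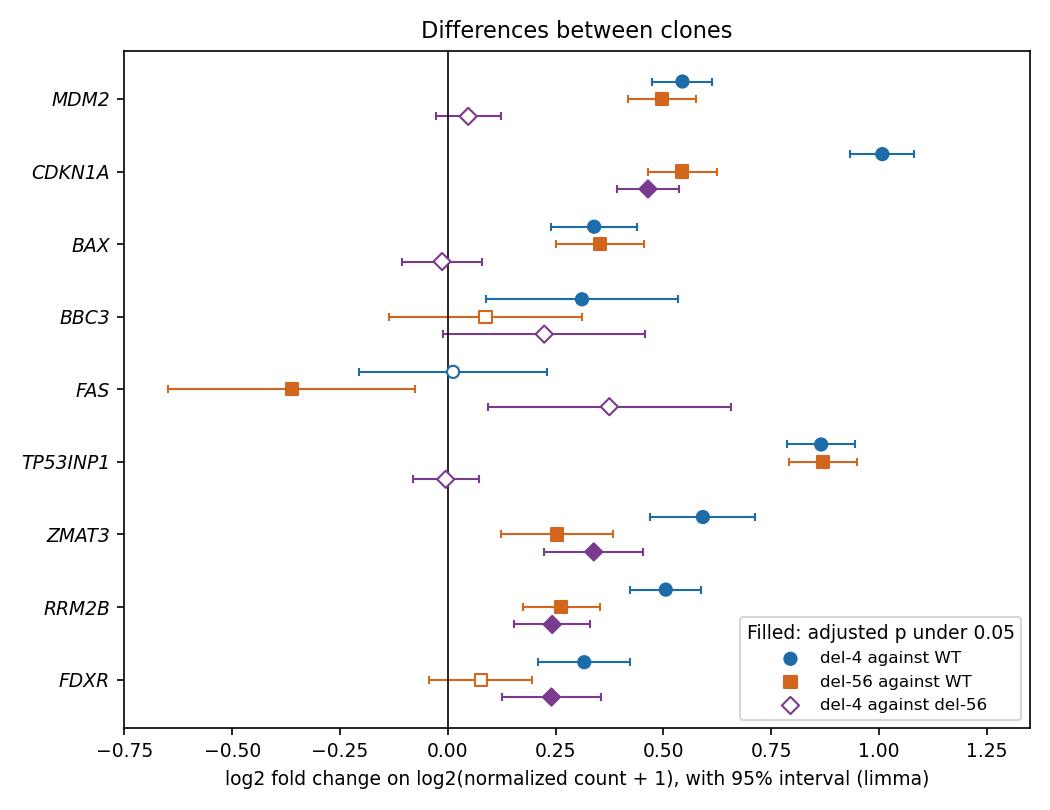
Log2 fold change of each p53 target gene (horizontal axis) with its 95% limma interval for del-4 against WT (circles), del-56 against WT (squares) and del-4 against del-56 (diamonds), filled where the adjusted p was under 0.05. *CDKN1A*, *ZMAT3*, *RRM2B* and *FDXR* had filled diamonds to the right of 0, and the diamonds of *MDM2*, *BAX* and *TP53INP1* lay near 0.

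Del-4 and del-56 were compared directly to test where the clones differed. *CDKN1A*, *ZMAT3*, *RRM2B* and *FDXR* were higher in del-4, by 0.46, 0.34, 0.24 and 0.24 on the log2 scale, and no gene of the 9 was called lower. These are 4 of the 9 genes, beside a background in which 10.9% of all genes were called higher and 9.0% lower in limma at an adjusted p under 0.05. On rescaling to the same total, the calls over all genes moved from 1898 higher and 1571 lower to 1381 higher and 2383 lower, and the same 4 genes were called. The libraries of the clones did not overlap for these 4 genes and for *FAS*, 5 of the 9, and 34.7% of all genes did not overlap. The limma adjusted p was 2.0e-04 for *ZMAT3* (SE 0.054), 4.3e-04 for *RRM2B* (SE 0.042) and 0.0042 for *FDXR* (SE 0.055). For *FAS*, del-4 exceeded del-56 by 0.37 (95% interval 0.093 to 0.66), and the limma adjusted p of 0.058 missed the threshold. It passed with a mean of at least 10 required and in 1 fit of all 9 libraries (limma adjusted p = 0.048 and 0.045). It also passed with edgeR (adjusted p = 0.045) and without del-56 replicate 1 (limma adjusted p = 0.033), and missed in the other settings run. Over all settings the *FAS* difference ranged from 0.22 to 0.46, and the limma adjusted p reached 0.27. For *BBC3* the difference was 0.22 (95% interval -0.011 to 0.46, limma adjusted p = 0.18), and for *BAX* it was -0.013 (95% interval -0.11 to 0.080, limma adjusted p = 0.87).

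Levels were also set side by side per kilobase of canonical transcript. In WT the order of the 9 genes was *BAX* (4953 ± 267 normalized counts per kilobase), *CDKN1A* (4900.5 ± 153), *TP53INP1* (2071 ± 66.7), *MDM2* (2028 ± 31.7), *FDXR* (1636 ± 78.2), *RRM2B* (1202 ± 27.5), *BBC3* (301 ± 17.2), *ZMAT3* (212 ± 13.4) and *FAS* (146 ± 9.36), each as mean ± SD with n = 3. *BAX* and *CDKN1A* did not differ beyond their spread, nor did *TP53INP1* and *MDM2*. In del-4 *CDKN1A* led with 9853 ± 88.1, ahead of *BAX* with 6264 ± 231. In del-56 *CDKN1A* had 7142 ± 127 and *BAX* 6320 ± 145. From *TP53INP1* downward the order was the same in each clone with all reads in the counts. With all reads of *CPM* taken off, those outside the shared bases included, *MDM2* had 1274 ± 32.6 normalized counts per kilobase in WT, compared with 1836 ± 40.7 in del-4 and 1783 ± 73.8 in del-56 (mean ± SD, n = 3). *MDM2* then stood below *FDXR* in WT and del-4, and within the spread of *FDXR* in del-56 (1725 ± 109). Reads of *MDM2* itself in the shared bases can be taken off in this way too. These levels of *MDM2* can thus be too low, and they do not settle its place in the order. Because reads were counted over the gene span, a level per kilobase of transcript also holds any intronic reads.

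The 54 other p53 targets, grouped by role from general knowledge, were read from the same fits. In del-4, 26 were called higher and 4 lower, where 20.5% and 20.2% of all genes were, and the median log2 fold change was 0.14. In del-56, 22 were called higher and 13 lower, where 19.2% and 20.5% of all genes were, and the median was 0.12. The 13 lower calls were near that background. Against del-56, 13 of the 54 were higher in del-4 and 2 were lower, where 10.9% and 9.0% of all genes were.

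**Figure D3:**
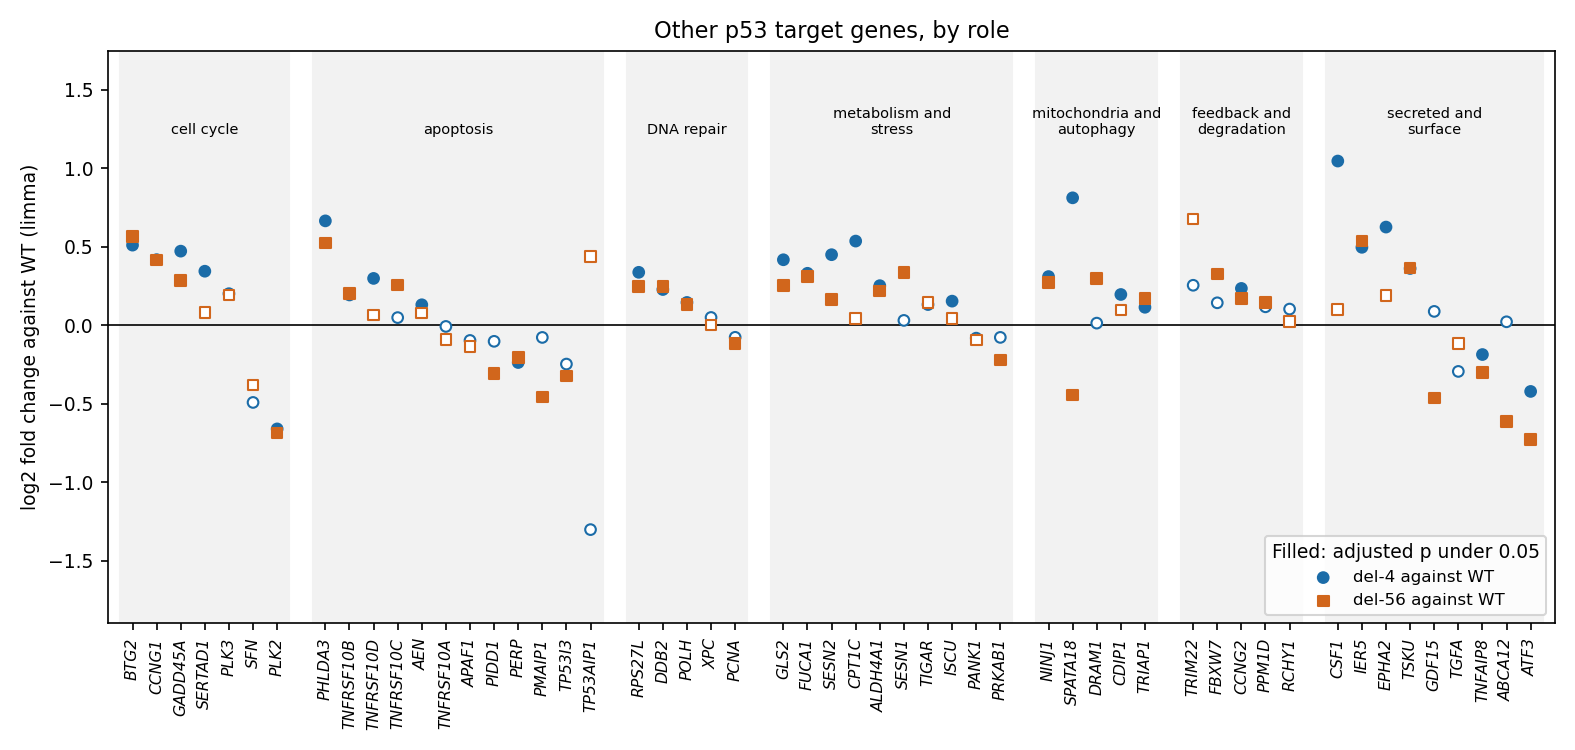
Log2 fold change against WT (vertical axis) of 53 of the 54 other p53 targets by role (horizontal axis), for del-4 (circles) and del-56 (squares), filled where the limma adjusted p was under 0.05. *EDA2R*, with a mean under 10 normalized counts in every clone, is left out. Most filled symbols lay above 0 in the cell cycle, DNA repair, metabolism, mitochondria and feedback groups, and directions were mixed in the apoptosis and the secreted and surface groups.

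The counts by role stand beside those of all genes, of which 20.5% were called higher and 20.2% lower in del-4. In del-56 the shares were 19.2% and 20.5%. The groups are small, and a share near those values is no result about a role. These targets were not set beside their neighbours on the chromosome, and the part of chromosome stretches in these counts was not tested. Of 7 cell cycle targets, 4 rose and 1 fell in del-4, and 3 rose and 1 fell in del-56. *BTG2*, an antiproliferative gene, had 3554 ± 166 normalized counts in WT, compared with 5061 ± 131 in del-4 and 5260 ± 25.5 in del-56 (mean ± SD, n = 3), and log2 fold changes of 0.51 and 0.57. The cyclin G gene *CCNG1* rose by 0.42 in each clone, and *GADD45A*, a growth arrest gene, by 0.47 in del-4 and 0.28 in del-56. *PLK2*, a polo-like kinase gene, was the one that fell, by 0.66 in del-4 and 0.69 in del-56.

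Among 13 apoptosis targets the directions were mixed. In del-4, 4 rose and 1 fell, and in del-56, 3 rose, near the share of all genes, and 5 fell. *PHLDA3*, which encodes an inhibitor of AKT, rose by 0.67 in del-4 and 0.52 in del-56, and *TNFRSF10B*, which encodes a TRAIL death receptor, by 0.19 and 0.20. *PERP*, for a membrane protein of cell adhesion, fell by 0.24 and 0.21.

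Of 5 DNA repair targets, 3 rose and 0 fell in del-4, and 3 rose and 1 fell in del-56. *RPS27L*, a ribosomal protein gene, rose by 0.34 in del-4 and 0.25 in del-56, *DDB2*, of nucleotide excision repair, by 0.23 and 0.25, and *POLH*, a translesion polymerase gene, by 0.15 and 0.13. Of 10 metabolism and stress targets, 6 rose and 0 fell in del-4, and 5 rose and 1 fell in del-56. The mitochondrial glutaminase gene *GLS2* rose by 0.42 and 0.25, the fucosidase gene *FUCA1* by 0.33 and 0.31, *SESN2*, a stress-induced inhibitor of mTORC1, by 0.45 and 0.17, and *ALDH4A1*, of proline breakdown, by 0.25 and 0.22.

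Of 5 mitochondrial and autophagy targets, 4 rose and 0 fell in del-4, and 3 rose and 1 fell in del-56. *NINJ1*, a gene of plasma membrane rupture, rose by 0.31 in del-4 and 0.27 in del-56. *SPATA18*, a gene of mitochondrial quality control named after its values were seen, had opposite changes, with 575 ± 22.2 normalized counts in WT, compared with 1016 ± 140 in del-4 and 424 ± 54.6 in del-56 (mean ± SD, n = 3). Of 5 feedback genes, 1 rose in del-4, near the share of all genes, and 3 rose in del-56, with *CCNG2* at 0.24 and 0.17. Of 9 secreted and surface targets, 4 rose and 2 fell in del-4, and 2 rose and 4 fell in del-56. The 2 that fell in del-4 and the 2 that rose in del-56 are near the shares of all genes. *IER5* rose by 0.50 in del-4 and 0.54 in del-56 and *TSKU* by 0.36 and 0.37, while *ATF3*, a stress transcription factor gene, fell by 0.42 and 0.73.

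Genes that act on p53 or beside the 9 targets were read from the same fits, in which 20.5% of all genes were called higher and 20.2% lower in del-4, and 19.2% higher and 20.5% lower in del-56. These lists are short, and a share near those values is no result about a list. Of 14 p53 regulators, 3 rose and 3 fell in del-4, and 4 rose and 4 fell in del-56, near the shares of all genes. The ribosomal protein genes *RPL11* and *RPL5*, whose products can bind MDM2, rose by 0.61 and 0.25 in del-4 and by 0.47 and 0.18 in del-56. *SIRT1*, for a deacetylase of p53, rose by 0.27 in del-4 and 0.34 in del-56. *USP7*, for a deubiquitinase of MDM2 and p53, fell by 0.27 in del-4 and 0.25 in del-56. *MDM4*, the partner of MDM2, was at -0.13 in del-4 and 0.009 in del-56 and passed the test in neither (limma adjusted p = 0.084 and 0.90).

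Beside *BAX* and *BBC3*, 14 other BCL2 family genes were tested, of which 6 rose and 2 fell in del-4, and 6 rose and 4 fell in del-56. *HRK*, which encodes a BH3-only protein, had 239, 159 and 191 normalized counts in del-4, 109, 142 and 99.4 in del-56, and 34.8, 34.7 and 42.4 in WT. The log2 fold changes of *HRK* were 2.35 in del-4 and 1.61 in del-56, with limma adjusted p = 4.4e-07 and 1.6e-04. The effector gene *BOK* rose by 0.64 in del-4 and 0.37 in del-56 and *BAK1* by 0.31 and 0.18. The survival genes *MCL1* and *BCL2L1* also rose, by 0.35 and 0.18 in del-4 and by 0.40 and 0.18 in del-56, and *BCL2L11*, which encodes BIM, fell by 0.33 and 0.17.

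In the FAS receptor pathway, the ligand gene *FASLG* was at 0 in every library. Of the 6 other genes, 2 rose and 3 fell in del-4, and 2 rose and 2 fell in del-56. The initiator caspase gene *CASP8* fell by 0.18 in del-4 and 0.32 in del-56 and the adaptor gene *FADD* by 0.19 and 0.14. *CFLAR*, for an inhibitor of caspase-8, rose by 0.20 and 0.17.

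Beside *CDKN1A*, 12 other CDK inhibitor, CDK and cyclin genes were tested in each clone against WT, of which 3 rose and 2 fell in del-4, near the shares of all genes, and 2 rose and 5 fell in del-56. *CDKN1B*, which encodes p27, rose by 0.11 in del-4 and 0.24 in del-56, *CCND3* fell by 0.21 and 0.25, and *CDK2* by 0.11 in each clone. Of 12 genes known to be repressed through p21 and the DREAM complex, 5 rose and 2 fell in del-4, and 5 rose and 4 fell in del-56. The risers included *CCNB1*, which encodes the mitotic cyclin B1, by 0.29 in del-4 and 0.35 in del-56, and *CDC20*, an activator of the anaphase-promoting complex, by 0.27 and 0.37. *MCM5*, for a subunit of the replicative helicase, fell by 0.42 and 0.45, and *PLK1*, a mitotic kinase gene, by 0.32 and 0.12.

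None of the 4 listed partners of *RRM2B* and *FDXR* was called higher against WT. The large ribonucleotide reductase subunit gene *RRM1* was at 0.047 in del-4 and -0.066 in del-56, and the S-phase small subunit gene *RRM2* was at -0.080 in del-4 and fell by 0.30 in del-56. The ferredoxin genes *FDX1* and *FDX2* were at -0.087 and -0.007 in del-4, neither past the test, and fell by 0.31 and 0.17 in del-56. Compared directly, both ribonucleotide reductase genes and both ferredoxin genes were called higher in del-4 than in del-56, as *RRM2B* and *FDXR* were. Of all genes, 10.9% were called higher in that comparison.

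Because stretches of chromosomes can differ in level between clones, each gene was set beside its 20 nearest expressed neighbours, 10 on each side. The medians of the neighbours ranged from -0.070 around *FAS* to 0.40 around *BAX* in del-4, and from -0.15 around *FAS* to 0.085 around *FDXR* in del-56. *TP53INP1* exceeded all 20 neighbours in both clones, its nearest in value being *NDUFAF6*, which holds its reads. For *MDM2* 1 neighbour was above it in each clone, *CPM*, and reads of either gene can be counted with the other. For *CDKN1A* 2 were above it in del-4, *RAB44* (2.78) and *CPNE5* (2.54), which lie just downstream, and 1 in del-56. For *ZMAT3* 1 was above it in del-4 and 2 in del-56. For *RRM2B* 2 were above it in del-4 and 4 in del-56, and for *BBC3* 7 in each clone. For *FDXR* 4 of 20 neighbours were above it in del-4 and 11 in del-56, for *BAX* 11 and 2, and for *FAS* 9 and 13. The other p53 targets, the p53 regulators and the partner genes were not set beside their neighbours. Whether stretches of chromosomes had a part in their differences was not tested.

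**Figure D4:**
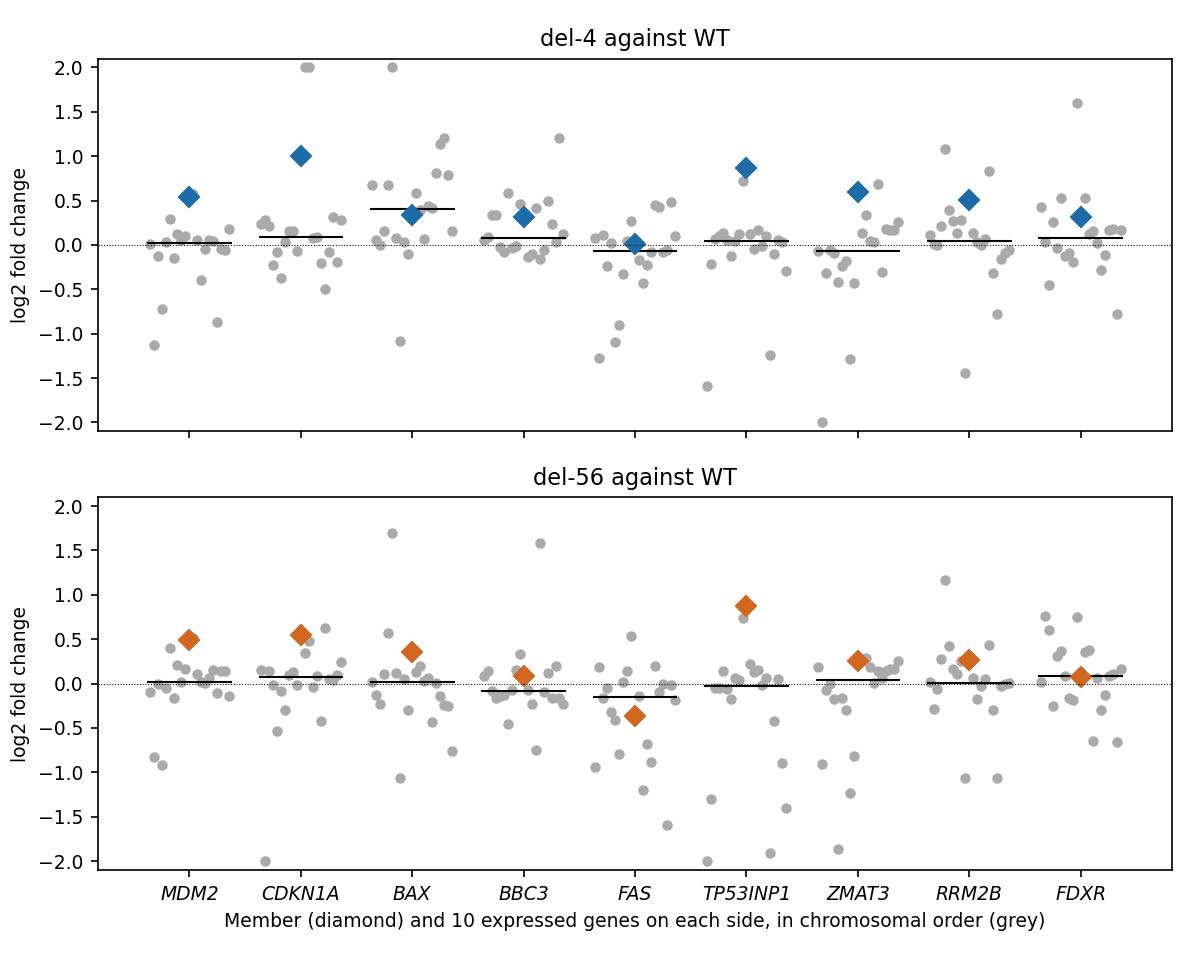
Log2 fold change against WT (vertical axis) of each p53 target gene (diamond) and its 20 nearest expressed neighbours (grey, in chromosomal order) in del-4 and del-56, with the median of the neighbours as a line. The *BAX* diamond lay below its neighbours' median of 0.40 in del-4, and values past 2 in size are drawn at 2 (2 neighbours of *CDKN1A*, 1 of *BAX* and 1 of *ZMAT3* in del-4, and 1 of *CDKN1A* and 1 of *TP53INP1* in del-56).

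For the 3 genes with the widest range of clone means, the genes of most like pattern were sought over the 9 libraries. Likeness was the root mean square difference of centred log2 values, over the 13086 genes that averaged 100 or more normalized counts. The nearest to *CDKN1A* were *PNMA1* (0.041), *FSIP1* (0.064) and *THBS1* (0.070). The nearest to *TP53INP1* were *SLC4A4* (0.043), *GSTM3* (0.061) and *GSTM5* (0.062), the last pair with nearly the same counts in each clone. The nearest to *ZMAT3* were *ARHGEF26* (0.058), *MXRA8* (0.061) and *OSBPL8* (0.063).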

How the data were processed

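PolyA RNA of 9 libraries was sequenced by strand-specific paired-end RNA-seq. Per the labels and the study's methods, the authors aligned reads to GRCh38 with STAR 2.71a and counted protein-coding genes with bedtools 2.27.1 multicov on GENCODE 38. The deposited signal values are counts that the authors divided by a DESeq2 size factor per library. Whole reads were recovered from 100.0% of values (tolerance 0.1), and 83.8% of values of 1 to 20 reads were even, as when both mates are counted. Symbols and positions came from GENCODE 44 for 19905 of 19984 genes.

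Clones were compared pairwise with limma 3.58.1 in R 4.3.3, with a variance trend, on log2 of the normalized count plus 1, for genes that averaged 1 or more in the 6 libraries. Fold changes are on that scale and understate those of low genes. edgeR 4.0.16 and DESeq2 1.42.0 on recovered reads, other pseudocounts, filters and scalings, 1 fit of all 9 libraries, a replicate block and leaving out each library were alternatives. Taking *CPM* reads off *MDM2* and *TP53INP1* reads off *NDUFAF6* was added after seeing the data. The fits were tested on simulated data. From each further list, genes called in the same direction in both clones against WT were named, at most 4, or 6 for partners of the 9 genes, largest mean change first, with genes at a mean under 1 everywhere, and both ribonucleotide reductase and ferredoxin partners. Some genes that met this rule are not reported here. *MDM4* and *SPATA18* were named after their values were seen. The genes and lists were chosen with earlier results of these data known.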

Additional observations from a re-analysis of the deposited data

Results flagged for a closer look

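For 4 of the 9 p53 target genes the effect in del-4 differed from that in del-56, tested as the direct difference of the clones in limma. The log2 difference of del-4 from del-56 was 0.46 for *CDKN1A* (adjusted p = 1.9e-08), 0.34 for *ZMAT3* (adjusted p = 2.0e-04), 0.24 for *RRM2B* (adjusted p = 4.3e-04) and 0.24 for *FDXR* (adjusted p = 0.0042). All 3 del-4 libraries lay above all 3 del-56 libraries for each of the 4, and 34.7% of all genes did not overlap, in either direction. Each clone is a single clone, so that the deletion and other differences between clones cannot be told apart.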

How the results depend on the processing

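*MDM2*, *CDKN1A*, *BAX*, *ZMAT3*, *RRM2B* and *TP53INP1* kept their direction and their call against WT in both clones, and *FDXR* in del-4, under every alternative fit run. *CDKN1A* in del-4 ranged from 0.94 to 1.02 and *TP53INP1* from 0.80 to 0.89. *BBC3* in del-4 and *FAS* in del-56 were not stable, with the values given above. On rescaling to the same total, calls over all genes were 2364 higher in del-4 against WT and 2383 lower in del-4 against del-56, 9 other p53 targets instead of 4 were lower in del-4, and *FAS* in del-4 was at -0.057. By unadjusted p with a log2 fold change past 1, 1 of the 9 genes was higher in del-4, 0 were higher and 0 lower in del-56, and for del-4 against del-56 0 were higher. The lower call of *FAS* in del-56 was lost (0 of 9) with no filter, quantile normalization and the replicate block. Leaving out a library gave 0 to 1 lower members in del-56. In del-4 against del-56 it gave 1245 to 2027 higher and 1021 to 1510 lower of all genes, and 8 to 13 higher and 1 to 3 lower of the other p53 targets. It also turned small differences: *FAS* in del-4 had -0.041 without WT replicate 2 and -0.033 without del-4 replicate 3. Between the *EPCART*-del clones *BAX* ranged from -0.036 to 0.016 and *TP53INP1* from -0.029 to 0.015 over the left-out libraries, above 0 for *BAX* without del-4 replicate 1 and for *TP53INP1* without del-4 replicate 2 or del-56 replicate 1 (0.0065). The cause was not tested.

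Deviations from the clone means of libraries with the same replicate number correlated at -0.053 to 0.063 (9 pairs, median 0.029). Libraries with other numbers correlated at -0.054 to 0.044 (18 pairs, median -0.011). The ranges overlapped, with the same numbers slightly higher, and the numbers were not taken as pairs in the main fit. With the replicate block, 8 of the 9 genes were higher in del-4 (log2 fold change of *CDKN1A* 1.01), 6 were higher in del-56, and *FAS* in del-56 had a limma adjusted p of 0.066. *FAS* had 277 to 601 reads per library, the fewest of the 9 genes by mean, and reads that are not independent molecules make counting intervals too narrow.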
